A study of Rattus norvegicus with 59 samples.

Results

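The genes examined here encode proteins of cell division and of DNA replication: Mki67, Prc1, Kif22, Rrm1, Fbxo5, Plk1, Ccne1, Blm, Pold1 and Lig1. They were chosen for these functions and with earlier results of these data known, and all 10 were present among the 2887 complete gene entries of the deposited rat lung table. Values were FPKM, fragment counts scaled to transcript length and to library size. Of the 2887 entries, 1278 had 4 or more libraries at an FPKM of 1 or above and were tested, and 8 of the 10 genes were among them. Kif22 and Fbxo5 passed only through the silica libraries, with 25 and 12 of 30 silica and 3 and 2 of 29 air libraries at an FPKM of 1 or above, so the filter favoured a higher silica level for these 2 genes in every count out of 8. Plk1 reached an FPKM of 1 in 3 libraries and Ccne1 in 0, and their tests come from a fit of 2325 genes made without that filter, which holds all 10.

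The lungs came from male Fischer F344/DuCrl rats bought at 3 months of age. Silica rats were exposed in a whole-body chamber to 15 mg/m3 of crystalline silica, the dust behind silicosis, during 5 days of 6 h each. Air rats were the controls in the same kind of chamber, at 0 mg/m3 silica. Lungs were taken at 6 times, after 1 and 3 months, after 6 and 9 months, and after 12 and 18 months, from 5 rats in each of the 6 silica groups (30 libraries) and 5 rats in each air group except that of 9 months, which held 4 (29 libraries). Each library came from a piece of 1 rat's lung, so it held RNA of all cell types of that piece, and time after exposure and the rat's age ran together.

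Dividing cells pass through a DNA synthesis phase and then mitosis, and cyclin-dependent kinases drive both. Genes of the DNA synthesis phase are largely under E2F transcription factors, and many mitotic genes carry a cell cycle homology region (CHR) in the promoter, which holds them off until late in the cycle. In adult lung few cells divide, mainly alveolar type 2 cells, airway progenitors and macrophages, and division increases after injury.

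All 10 genes lie on chromosome 1, as did 99.3% of the 2061 entries whose names the RefSeq table of the GRCr8 rat assembly held. Library depth, read from the steps of low values, ranged from 0.425 to 2.01 of the typical library, with medians of 0.969 in silica and 1.00 in air libraries. The lowest was air 9-month replicate 1 and the highest air 18-month replicate 2. The FPKM of all complete entries summed to 38613 in air 9-month replicate 3 and 31740 in silica 3-month replicate 5. In the other libraries the sum was 12818 to 17600. Whichever 9-month library was left out, 7 of the 8 tested genes were called higher at 9 months. The alveolar type 2 genes Napsa and Lpcat1 averaged 108 and 66.8 FPKM over all libraries. The library labelled silica, 12 months, replicate 3 stood apart. In 60 genes that separated silica from air at the other times, it was nearer to the air mean in 56. The other 4 silica libraries of 12 months, also not used to choose these genes, were nearer to air in 1 to 9. Silica libraries of the other times, which helped to choose the genes, were nearer to air in 0 to 15. Replicate 3 of 12 months was also nearer to air in the 10 genes examined here, although in Pold1 it lay above both groups, whose means were close. The 12-month results are therefore given with and without it. Of the air libraries, 18-month replicate 3 was the one nearer to silica most often, in 18 of the 60 genes and 7 of the 10. The other air libraries were nearer to silica in 2 to 15 of the 60. Air libraries of all times but 12 months had helped to choose the 60 genes. Without air 18-month replicate 3 the 18-month count of genes called higher was 4, as with it.

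Promoter windows, from 250 bases before to 50 bases after the annotated start, were available from RefSeq (GRCr8) for 9 of the 10 genes; Blm was not matched. The CHR word TTTGAA, searched on both strands, was present in 5 of the 9 windows, those of Mki67, Prc1, Kif22, Fbxo5 and Plk1, and in 18.3% of 33469 rat promoters of the same length. Of these, Mki67 marks dividing cells, Prc1, Kif22 and Plk1 act in mitosis, and Fbxo5 acts before it. The stretches around the matches are shown because they hold the CHR word, and whether mitotic and replication genes differ in it was not tested. They are given with TTTGAA, or its reverse complement TTCAAA, in capitals:
Mki67 (GRCr8, chr1:199952667-199952730, minus strand): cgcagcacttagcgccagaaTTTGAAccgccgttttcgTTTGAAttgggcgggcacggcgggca
Prc1 (GRCr8, chr1:143659443-143659488, plus strand): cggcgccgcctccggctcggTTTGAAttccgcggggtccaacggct
Kif22 (GRCr8, chr1:191080869-191080914, minus strand): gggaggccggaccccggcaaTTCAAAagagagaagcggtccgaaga
Fbxo5 (GRCr8, chr1:44607752-44607797, minus strand): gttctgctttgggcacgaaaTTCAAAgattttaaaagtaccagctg
Plk1 (GRCr8, chr1:186147644-186147687, plus strand): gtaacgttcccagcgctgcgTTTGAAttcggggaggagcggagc
The matches began at bases -117 and -99 in Mki67, -18 in Prc1, -16 in Kif22, 4 in Fbxo5 and 6 in Plk1, counted from the start base as 0. CCAAT, the box bound by NF-Y, was found on either strand in 7 of the 9 windows and in 37.5% of all promoters. One CCAAT match in Mki67 shared 1 base with its second TTTGAA.

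The windows of Rrm1, Ccne1, Pold1 and Lig1 held no TTTGAA. The E2F words TTTCCCGC, TTTCGCGC, TTTGCCGC and TTTGGCGC, searched on both strands and overlapping no other match in these windows, were found in Lig1 alone of the 9 and in 2.14% of all promoters. The Lig1 match is TTTCGCGC read on the opposite strand, beginning at base 19, and it is in capitals here:
Lig1 (GRCr8, chr1:83243169-83243199, plus strand): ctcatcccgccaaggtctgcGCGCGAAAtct
A match describes letters and not binding, and the window without a match says nothing about the factor. The map of motif positions shows the TTTGAA matches of Prc1, Kif22, Fbxo5 and Plk1 close to the start.

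**Figure D1:**
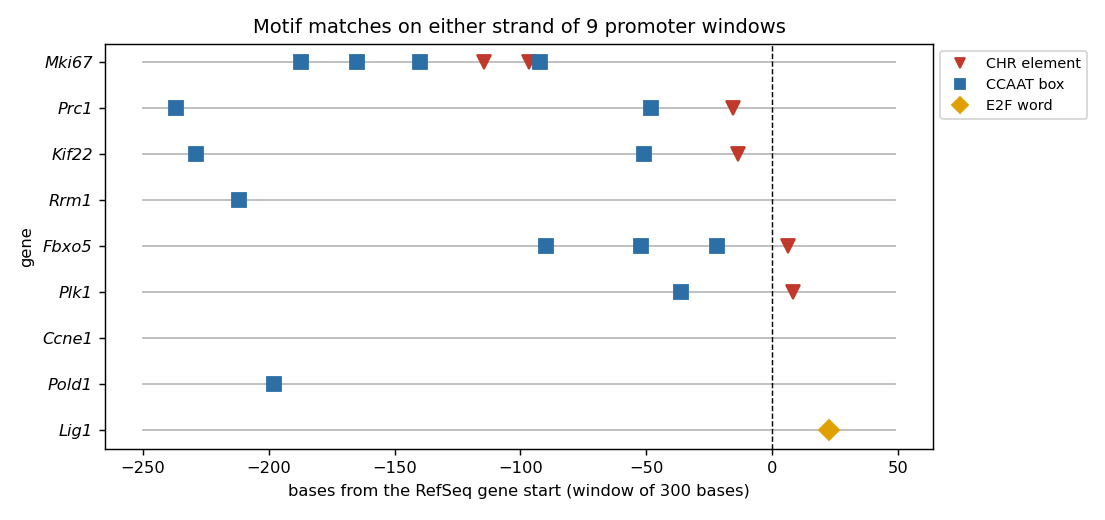
Positions of motif matches in the promoter windows of 9 genes, in bases from the RefSeq start (dashed line). Triangles mark the CHR word, squares CCAAT and the diamond the E2F word; the windows of 5 genes carry the CHR word and that of Lig1 the E2F word.

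The cell cycle and replication genes were higher in silica than in air lungs, and more of them passed the test at 9 months than at any other time. Over the 6 times together, in the fit without a filter, all 10 genes rose in silica lungs, against 23.0% of genes in that fit (limma, Benjamini-Hochberg adjusted p under 0.05). Among genes past the filter, 8 of 8 rose and 0 fell, against 37.5% of all tested genes that rose and 20.1% that fell, a count that includes Kif22 and Fbxo5 with the limit given above. The median log2 change, silica minus air on the log2(FPKM + 0.5) scale, was 0.30 for the 8 genes and 0.032 for all 1278 tested genes. On this scale the largest rises were those of Mki67, Prc1 and Kif22 (0.72, 0.67 and 0.56), and the smallest those of Pold1 and Blm (0.13 and 0.16). Plk1 and Ccne1, in the fit without a filter, rose by 0.42 and 0.40. The added 0.5 understates the change of low genes, so these sizes do not rank genes of different levels. With 0.1 added in its place, Plk1 and Ccne1 rose by 0.69 and 0.88, and the values of the 8 genes at that setting are not given here. Rrm1 rose by 0.33, Fbxo5 by 0.27 and Lig1 by 0.22. Whether genes of mitosis and of replication differed in their rise was not tested. In pieces of whole lung, more cells of a type and more RNA per cell cannot be told apart.

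By time, 2 of the 8 tested genes were called higher at 1 month (Prc1 and Rrm1), where 8.45% of all tested genes were. At 3 months 3 were called (Mki67, Prc1 and Kif22), against a background of 15.9%. At 6 months Rrm1 and Lig1 joined these 3, which made 5, against 21.2%. At 9 months 7 were called, all except Pold1, against 19.5%. At 12 months 6 were called, against 14.6%, and at 18 months 4, namely Mki67, Prc1, Kif22 and Rrm1, against 11.8%. None was called lower at any time. For 3, 3, 5, 6, 0 and 3 of the 8 genes from 1 to 18 months, the lowest silica value exceeded the highest air value. The same held for 8.06%, 11.0%, 20.6%, 16.0%, 1.64% and 9.23% of all tested genes.

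The 1-month count was the least firm. With the libraries centred on their medians it was 0, with quantile normalization it was 0, and it was 0 to 3 when any 1 library was left out. Without a filter, 2, 4, 6, 9, 7 and 3 of the 10 genes were called from 1 to 18 months, where the background was 3.87%, 7.40%, 11.1%, 10.5%, 7.61% and 6.84%. Of the 27 calls of single genes at single times, 21 were kept whichever library was left out.

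**Figure D2:**
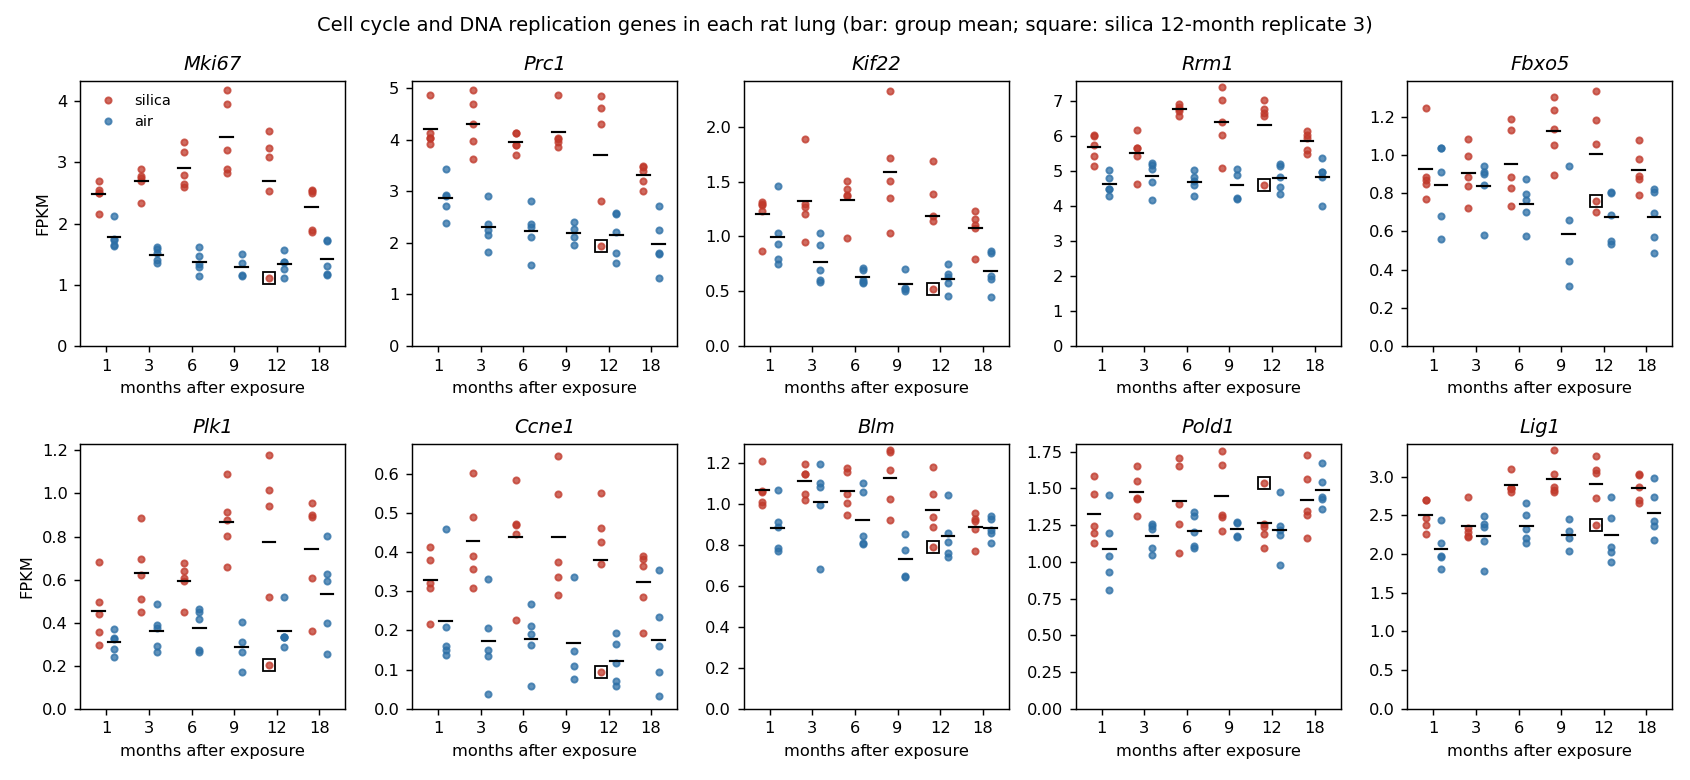
FPKM of each of the 10 genes in every library (points) by months after exposure, silica left of air, with group means as bars and silica 12-month replicate 3 marked by a square. For Mki67 the silica points lie above all air points at every time but 12 months, where the marked library lies among the air points.

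Mki67 encodes Ki-67, a protein that coats mitotic chromosomes and is the standard marker of dividing cells. At 1 month it stood at 2.16, 2.50, 2.70, 2.54 and 2.50 FPKM in silica lungs, against 1.64, 1.73, 1.65, 2.12 and 1.75 in air lungs. All 5 silica values were the higher ones, but the log2 change of 0.39 ± 0.13 (SE) did not pass the test (limma adjusted p = 0.0513; exact two-sided permutation p = 0.00794, not adjusted and the smallest these group sizes give). At 9 months it stood at 2.82, 2.89, 3.20, 3.94 and 4.17 FPKM in silica lungs, against 1.14, 1.36, 1.17 and 1.498 in air lungs. The groups were furthest apart here, with the lowest silica lung well above the highest air lung. The change was 1.12 ± 0.14, or 2.17-fold in FPKM + 0.5 (limma adjusted p = 5.22e-08). Mean FPKM without the added 0.5 were 3.40 in silica and 1.29 in air lungs. At 18 months values were 2.53, 1.86, 1.89, 2.49 and 2.55 FPKM in silica lungs, against 1.17, 1.31, 1.72, 1.73 and 1.15 in air lungs, a change of 0.53 ± 0.13 (limma adjusted p = 0.00375). The groups did not overlap, although the lowest silica and highest air lungs were close.

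Between these times Mki67 rose by 0.68 ± 0.13 at 3 months, with silica lungs at 2.34 to 2.88 FPKM and air lungs at 1.35 to 1.61. At 6 months it rose by 0.86 ± 0.13, with 2.60 to 3.33 FPKM in silica and 1.15 to 1.62 FPKM in air lungs (limma adjusted p = 0.00015 at 3 and 1.69e-06 at 6 months). Ordered by mean, the silica groups ran from 9 months (3.40 ± 0.62 FPKM, SD, n = 5) through 6, 12, 3 and 1 months to 18 months (2.27 ± 0.36), and all lay above the air groups. Neighbours among the silica groups differed by less than the larger of their SDs. The highest air group was that of 1 month (1.78 ± 0.20 FPKM, n = 5) and the lowest that of 9 months (1.29 ± 0.17, n = 4). The gap between 18-month silica and 1-month air, and that between 1-month and 3-month air, exceeded both groups' SD.

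At 12 months Mki67 stood at 3.52, 2.53, 1.12, 3.23 and 3.08 FPKM in silica lungs, against 1.56, 1.37, 1.37, 1.12 and 1.25 in air lungs. The 1.12 of the silica group belonged to replicate 3 and lay among the air lungs, and the other 4 silica lungs were above all 5. With that library the change was 0.74 ± 0.13 (limma adjusted p = 5.47e-05), and without it 0.96 ± 0.10 (1.29e-10). In a limma fit of the 12-month groups alone, which estimates the spread from them, none of the 8 genes was called, and Mki67 had an adjusted p of 0.115.

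The genes of mitosis and of the steps before it followed Mki67 in different degrees. Prc1 encodes a protein that bundles the microtubules of the central spindle for cytokinesis, and it was the only gene of the 8 called at all 6 times. At 1 month it stood at 3.93, 4.04, 4.04, 4.86 and 4.13 FPKM in silica lungs, against 2.93, 2.91, 2.38, 3.43 and 2.72 in air lungs, with no overlap (log2 change 0.48 ± 0.14, limma adjusted p = 0.0187). At 18 months silica lungs held 3.48, 3.20, 3.01, 3.40 and 3.48 FPKM, against 1.33, 1.80, 2.72, 2.25 and 1.79 in air lungs (0.65 ± 0.14, limma adjusted p = 0.000741). Again no value overlapped, and the 5 silica lungs were closer to each other than the 5 air lungs were. The changes from 3 to 12 months lay between 0.62 and 0.79, and the highest silica mean was that of 3 months, 4.31 ± 0.53 FPKM (SD, n = 5), which its neighbour in the order, 1 month, did not differ from beyond the SD. The 1-month call was lost without air replicate 2 or 3 or silica replicate 4 (limma adjusted p = 0.0501 to 0.0638).

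Kif22 encodes a chromosome-binding kinesin that moves chromosomes on the spindle. At 9 months it stood at 1.51, 1.03, 1.35, 2.32 and 1.72 FPKM in silica lungs, against 0.499, 0.702, 0.532 and 0.520 in air lungs. The rise was 0.95 ± 0.15, or 1.93-fold in FPKM + 0.5 (limma adjusted p = 6.07e-06). Mean FPKM without the added 0.5 were 1.59 in silica and 0.563 in air lungs. The groups were well apart, with 1 silica lung above the rest of its group. At 1 month the groups overlapped, 0.871 to 1.32 FPKM in silica and 0.7503 to 1.46 in air lungs, and the change of 0.20 ± 0.15 did not pass (limma adjusted p = 0.46). At 3, 6 and 12 months it rose by 0.52, 0.69 and 0.56, and at 18 months by 0.42 ± 0.15 (limma adjusted p = 0.0415). The 3-month call was lost without silica replicate 1 (limma adjusted p = 0.0541). The 18-month call was lost without any one of air replicates 2, 4 and 5 or silica replicates 1, 2, 4 and 5 (0.0576 to 0.145), and with libraries centred on their medians (0.0603).

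Fbxo5 encodes Emi1, an inhibitor of the anaphase-promoting complex (APC/C) that keeps cyclins from being degraded before mitosis. At 9 months it stood at 0.896, 1.30, 1.13, 1.23 and 1.05 FPKM in silica lungs, against 0.312, 0.940, 0.444 and 0.659 in air lungs (0.60 ± 0.13, limma adjusted p = 0.000435). Only the highest air lung reached into the silica range. At 12 months it rose by 0.35 ± 0.13 (limma adjusted p = 0.0388), a call lost without any one of 6 of the 10 libraries, silica replicates 1, 4 and 5 and air replicates 1, 3 and 4 (0.0516 to 0.156), and in the fit without a filter (0.0602). At 1, 3, 6 and 18 months the changes of 0.09, 0.07, 0.22 and 0.28 did not pass.

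Plk1 encodes the Polo-like kinase that drives entry into and passage through mitosis, and its level was low. At 9 months it stood at 0.915, 0.802, 0.659, 0.875 and 1.09 FPKM in silica lungs, against 0.402, 0.171, 0.262 and 0.309 in air lungs. The groups did not overlap, and the change in the fit without a filter was 0.80 ± 0.16 (limma adjusted p = 0.000257). At 12 months values were 1.18, 0.520, 0.203, 0.943 and 1.02 FPKM in silica lungs, against 0.335, 0.333, 0.333, 0.520 and 0.289 in air lungs. Silica replicate 3 was the lowest of the 10 lungs, and the change was 0.50 ± 0.15 with it and 0.70 without it (limma adjusted p = 0.022 and 0.000157). At 1, 3, 6 and 18 months the changes of 0.23, 0.39, 0.33 and 0.26 did not pass, and at 18 months the silica range of 0.361 to 0.955 FPKM overlapped most of the air range of 0.256 to 0.801.

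Genes of entry into DNA synthesis and of its building blocks also rose. Rrm1 encodes the large subunit of ribonucleotide reductase, which makes deoxyribonucleotides, and it had the highest level of the 10 genes per transcript length, a mean of 5.42 FPKM over all libraries. At 6 months it stood at 6.92, 6.82, 6.77, 6.70 and 6.58 FPKM in silica lungs, against 4.60, 5.03, 4.82, 4.27 and 4.70 in air lungs. The 5 silica lungs were close together and far above the air lungs, and the change was 0.49 ± 0.081 (limma adjusted p = 7.52e-06). Unlike Mki67, Prc1 and Kif22, its 3-month change was small, 0.16 ± 0.081 (limma adjusted p = 0.157), with silica lungs at 4.63 to 6.18 FPKM and air lungs at 4.16 to 5.21.

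Rrm1 rose by 0.27 at 1, 0.43 at 9, 0.35 at 12 and 0.25 at 18 months. At 12 months the 4 other silica lungs held 6.56 to 7.02 FPKM and replicate 3 held 4.60, against 4.33 to 5.19 in air lungs, and the change without replicate 3 was 0.45 ± 0.075 (limma adjusted p = 3.67e-06). The 1-month call was lost without any one of air replicates 2, 3 and 5 or silica replicates 3, 4 and 5 (limma adjusted p = 0.054 to 0.0778). The 18-month call was lost without air replicate 1 or silica replicate 4 or 5 (0.0522 to 0.124), and with libraries centred on their medians (0.0531).

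Ccne1 encodes cyclin E1, the partner of CDK2 at the start of DNA synthesis, and it had the lowest level of the 10, with a mean of 0.283 FPKM and a highest value of 0.646. Its mean was higher in silica lungs at each time. At 12 months it was 0.452 ± 0.077 FPKM in 4 silica lungs (SD, n = 4) and 0.0935 FPKM in replicate 3, against 0.121 ± 0.058 (SD, n = 5) in air lungs. In the fit without a filter it rose by 0.47, 0.47, 0.49 and 0.48 at 3, 6, 9 and 12 months (limma adjusted p = 0.0108 to 0.0167). At 1 and 18 months the changes of 0.21 and 0.30 did not pass (limma adjusted p = 0.502 and 0.176). Without silica replicate 3 the 12-month rise was 0.62 (limma adjusted p = 0.000354).

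On the log2 scale used here, Lig1, Blm and Pold1 had the smallest mean rises over times of the 8 tested genes (0.22, 0.16 and 0.13). The rise of Fbxo5, 0.27 ± 0.052 (SE), was close to that of Lig1, 0.22 ± 0.032. These sizes do not rank genes of different levels, and whether replication enzymes rose less than the other genes was not tested. Lig1 encodes DNA ligase 1, which joins the fragments of the lagging strand. At 6 months it stood at 2.86, 2.84, 2.86, 2.80 and 3.10 FPKM in silica lungs, against 2.14, 2.66, 2.21, 2.32 and 2.50 in air lungs, a rise of 0.24 ± 0.078 (limma adjusted p = 0.0148). The groups did not overlap, here or at 9 months, when the rise was 0.34 ± 0.083 (limma adjusted p = 0.00138). It rose by 0.31 at 12 months, and at 1, 3 and 18 months the changes of 0.23, 0.07 and 0.15 did not pass. Without silica replicate 3 the 12-month rise was 0.37 (limma adjusted p = 0.00022).

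Blm encodes the Bloom syndrome helicase, which resolves recombination intermediates. It was called at 9 months alone, with 1.03, 1.26, 0.923, 1.26 and 1.17 FPKM in silica lungs, against 0.778, 0.852, 0.645 and 0.650 in air lungs (0.40 ± 0.087, limma adjusted p = 0.000332). Every silica lung was above every air lung, and the 9-month air mean of 0.731 FPKM was the lowest of its 12 group means. The test of whether its difference varied between times was not passed (limma F test, adjusted p = 0.305). Its other changes lay between 0.01 at 18 months and 0.18 at 1 month.

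Pold1 encodes the catalytic subunit of DNA polymerase delta, which copies the lagging strand. It was called at no single time, and only its mean over the 6 times passed, a rise of 0.13 ± 0.039 (limma adjusted p = 0.0046). After median centring that mean was 0.065 and did not pass (limma adjusted p = 0.135). At 3 months it stood at 1.65, 1.43, 1.31, 1.55 and 1.43 FPKM in silica lungs, against 1.05, 1.10, 1.22, 1.25 and 1.26 in air lungs. These groups did not overlap, and the change of 0.24 ± 0.094 had a limma adjusted p of 0.0675 and an exact two-sided permutation p of 0.00794, not adjusted. At 12 and 18 months the changes were 0.04 and -0.05.

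**Figure D3:**
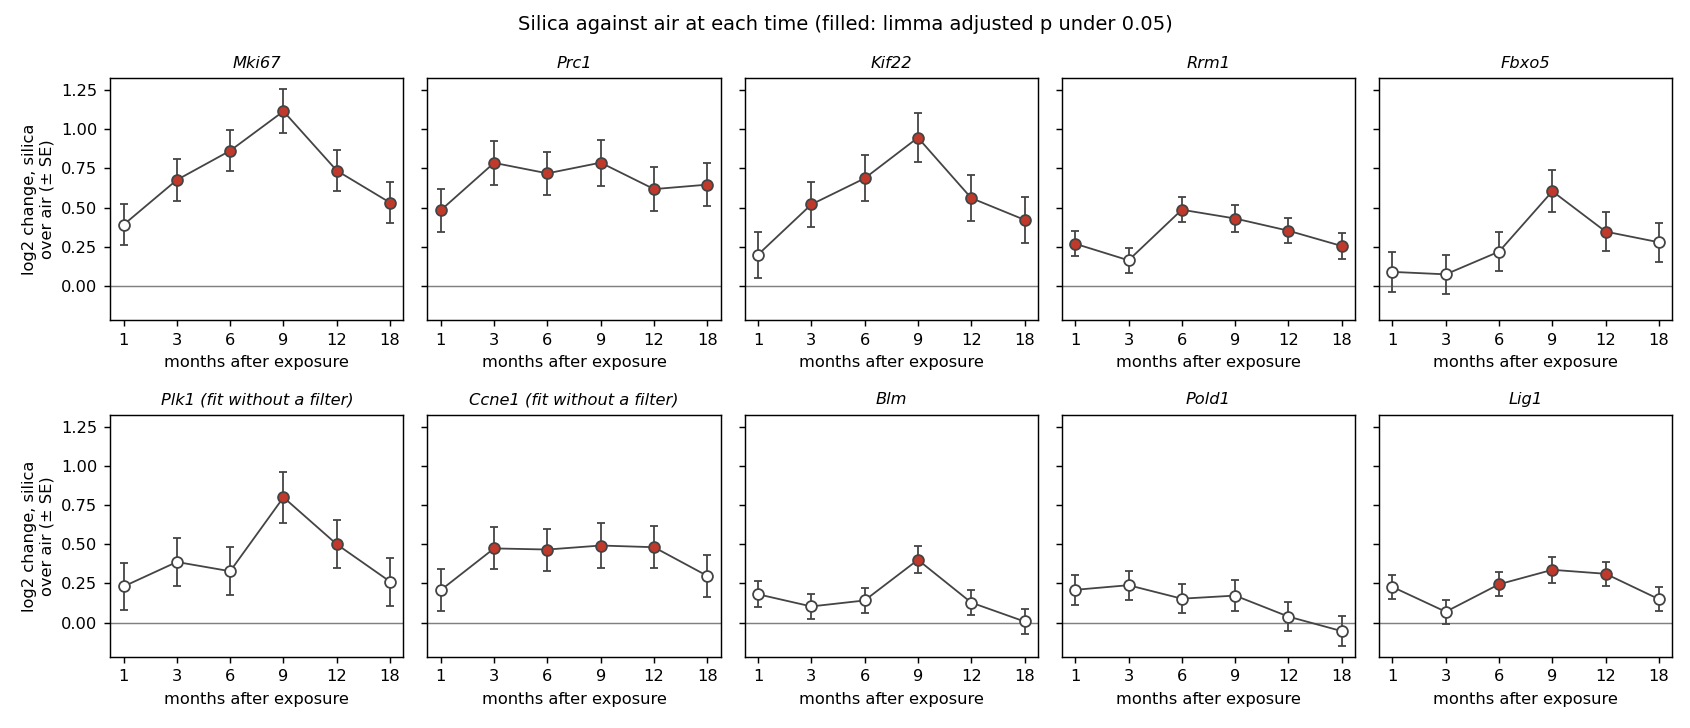
Log2 change, silica over air, ± SE from the limma fit for each gene by months after exposure; filled points passed at an adjusted p under 0.05. All genes but Rrm1 (6 months) and Pold1 (3 months) have their highest point at 9 months, and Prc1 stays between 0.48 and 0.79. The 9-month air mean was the lowest air mean in Mki67, Kif22, Rrm1, Fbxo5, Plk1 and Blm.

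Whether the size of the difference changed with time was tested over all genes. Of the 8 tested genes 0 passed the F test of variation between times, against 1.33% of all tested genes (limma adjusted p = 0.167 for Mki67, the smallest of the 8, to 0.823 for Prc1). The rise at 18 months minus that at 1 month was called for 0 of 8, where 0.0782% of genes were called higher and 0.0782% lower, and it was 0.14 ± 0.19 for Mki67. Without silica 12-month replicate 3, Mki67 passed the F test (limma adjusted p = 0.0025), 1 of the 8 genes against 6.10% of all tested genes. Kif22 and Rrm1 came next and did not pass (0.0661 and 0.0957).

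Without that library the same 6 genes were called at 12 months, Mki67, Prc1, Kif22, Rrm1, Fbxo5 and Lig1, against 21.9% of all tested genes, and all 8 in the mean over times, against 38.7%. Prc1 rose by 0.80 ± 0.13 and Kif22 by 0.73 ± 0.14 at 12 months (limma adjusted p = 1.52e-06 and 3.45e-05). Fbxo5 rose by 0.41 ± 0.13 (0.0136). The library lay within the range of the 12-month air lungs in 8 of the 10 genes. In Plk1 it was lower than all of them, and in Pold1, at 1.54 FPKM, higher. The other 4 silica lungs lay above every air lung in 6 of the 10 genes, 4 of them among the 8 tested. In Plk1 the lowest of these silica lungs, at 0.52003 FPKM, barely exceeded the highest air lung, at 0.51995. The share of all tested genes with no overlap of these 4 lungs and air was not computed.

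Between the 18-month and the 1-month air lungs, which differ in age and in time since the chamber together, 2 of the 8 genes were higher and 1 was lower, against 17.4% and 4.46% of all tested genes. With 8 genes, these counts are near the shares of all genes. Prc1 stood at 1.33, 1.80, 2.72, 2.25 and 1.79 FPKM at 18 months, against 2.93, 2.91, 2.38, 3.43 and 2.72 at 1 month, a fall of 0.46 ± 0.14 on the log2 scale (limma adjusted p = 0.0124). The highest 18-month lung lay inside the 1-month range, and the other 4 lay below it. Without air 18-month replicate 1 the adjusted p was 0.0605.

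Pold1 went the other way in air, with 1.43, 1.36, 1.67, 1.55 and 1.44 FPKM at 18 months, against 1.45, 0.808, 1.04, 1.197 and 0.932 at 1 month (0.34 ± 0.094, limma adjusted p = 0.00648). Lig1 stood at 2.18, 2.42, 2.98, 2.74 and 2.36 FPKM at 18 months, against 1.98, 1.81, 2.44, 1.96 and 2.15 at 1 month (0.24 ± 0.078, limma adjusted p = 0.0212). In Pold1 4 of the 5 1-month lungs lay below every 18-month lung, and in Lig1 4 of the 5 did. The Lig1 call was lost after median centring (0.15, limma adjusted p = 0.113) and after quantile normalization (0.17, 0.085). It was also lost without air 1-month replicate 2 or air 18-month replicate 3 or 4 (0.0595 to 0.0981). Mki67 and Kif22 changed by -0.26 and -0.33 and did not pass (limma adjusted p = 0.164 and 0.0981), but both passed as lower after median centring, at -0.34 and -0.42 (0.0364 and 0.0252). Both also passed as lower after quantile normalization (limma adjusted p = 0.0451 and 0.0323) and with array weights (0.0185 and 0.0108). The shares of all tested genes that were lower in these other fits are not given here. Over all 6 air groups, 0 of the 8 genes passed the F test of variation, against 28.9% of all tested genes. A different gene passed when 1 air library was left out, Pold1 without 1-month replicate 1, Blm without 3-month replicate 5 and Prc1 without 18-month replicate 3 (limma adjusted p = 0.0224, 0.0149 and 0.0429).

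Some pairs of these genes deviated together between rats of the same group. Over the 45 pairs the median Pearson r of deviations was 0.34, and 0.23 without silica 12-month replicate 3, against 0.060 and 0.060 over all pairs of tested genes; the lowest was -0.12. Deviations from the group means on the log2 scale correlated across the 59 libraries at Pearson r = 0.68 for Mki67 with Kif22, 0.64 for Mki67 with Prc1 and 0.69 for Prc1 with Plk1. Without silica 12-month replicate 3 these were 0.55, 0.44 and 0.58 over 58 libraries. Rrm1 deviated with Ccne1 at 0.60 and 0.49. Pold1 showed no such relation to Mki67, at -0.04 and 0.19, and Blm and Pold1 had -0.11 and -0.05. These are descriptions, since the genes share each library's depth and cell make-up and low values are noisy.

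**Figure D4:**
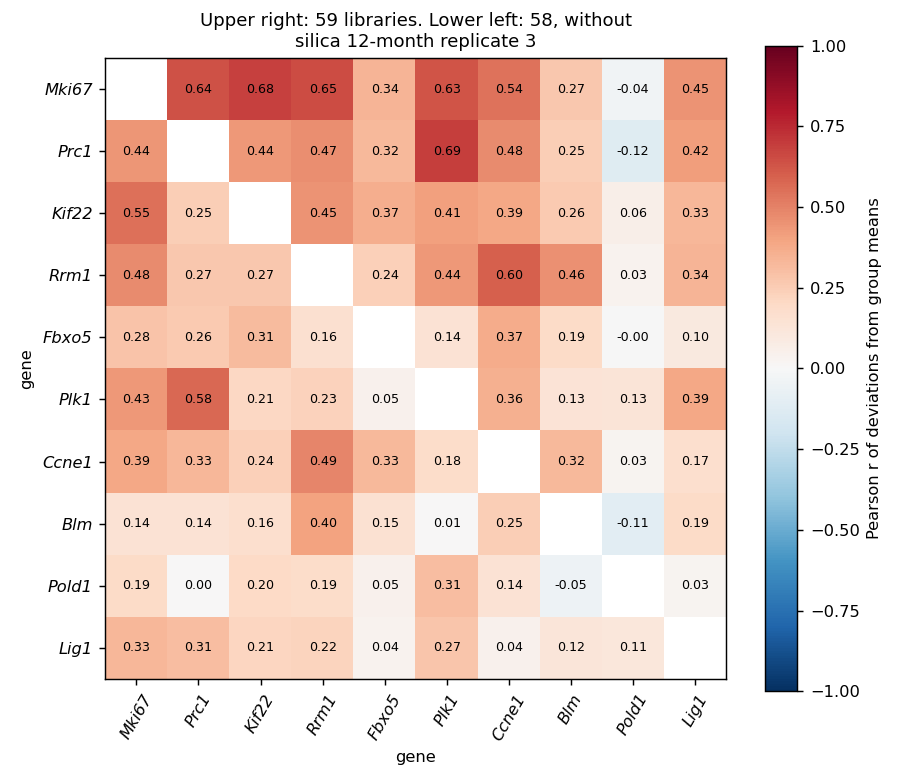
Pearson correlation of deviations from group means between each pair of the 10 genes, over 59 libraries (upper right) and over 58 without silica 12-month replicate 3 (lower left). The highest values are Prc1 with Plk1 (0.69 and 0.58) and Mki67 with Kif22 (0.68 and 0.55), and the Pold1 values lie between -0.12 and 0.13 over 59 libraries.

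Among other tested genes with a gene symbol, those whose deviations were most like those of Mki67 were Pld3, a lysosomal exonuclease (r = 0.78), Napsa, the aspartic peptidase of alveolar type 2 cells (0.77), and Apobr, a lipoprotein receptor of macrophages (0.77). Itgam, the integrin alpha M chain of myeloid cells (0.77), Tyrobp, a signalling adaptor of myeloid receptors (0.76), and Lpcat1, a surfactant lipid enzyme of type 2 cells (0.74), came next. Without silica 12-month replicate 3 the 6 values were 0.50 to 0.59. Over all 59 libraries as they stood, which puts silica and air lungs together, the 6 most alike were Lpcat1, Prcp, P2ry2, Ldha, Cd33 and Sod2.

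The other genes of the pathway present in the table had a smaller median change. The 10 genes and the lists were chosen with earlier results of these data known, so this comparison is not independent. Of 235 genes on 9 lists of cell cycle and replication functions, 25 were in the table, 15 of them not among the 10, and 12 of these were tested. In the mean over the 6 times 4 of the 12 rose and 0 fell, near or below the 37.5% and 20.1% of all tested genes, with a median change of 0.054 against 0.032 for all tested genes. By time, 0, 1, 2, 2, 0 and 0 of the 12 rose from 1 to 18 months, at or below the shares of all tested genes given above. Anapc15, a subunit of the APC/C, averaged 7.43 FPKM over the silica libraries and 6.01 over the air libraries and rose by 0.28 ± 0.050 (limma adjusted p = 4.42e-06).

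Bub3, of the spindle checkpoint, rose by 0.14 ± 0.036, Ube2s, the ubiquitin-chain enzyme of the APC/C, by 0.09 ± 0.035, and Pold3, a further subunit of polymerase delta, by 0.08 ± 0.035 (limma adjusted p = 0.000984, 0.0191 and 0.0493). These last 3 did not pass with libraries centred on their medians (0.08, 0.03 and 0.02), nor with quantile normalization (0.04, -0.02 and 0.02), where Ube2s turned lower. The Pold3 call was also lost without any one of 35 of the 59 libraries. Those that did not pass in the mean were the kinases Wee1 and Aurkc, Lin37 of the complex that binds CHR elements, Haus5 of the spindle, and the repair genes Fancf, Xrcc1, Ercc1 and Ercc2, with changes from -0.06 to 0.08. Ube2s fell in air lungs at 18 against 1 month by 0.28 ± 0.085 (limma adjusted p = 0.0145). The list of CDK inhibitors had 0 genes in the table, and genes outside the table were not analysed here.

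**Figure D5:**
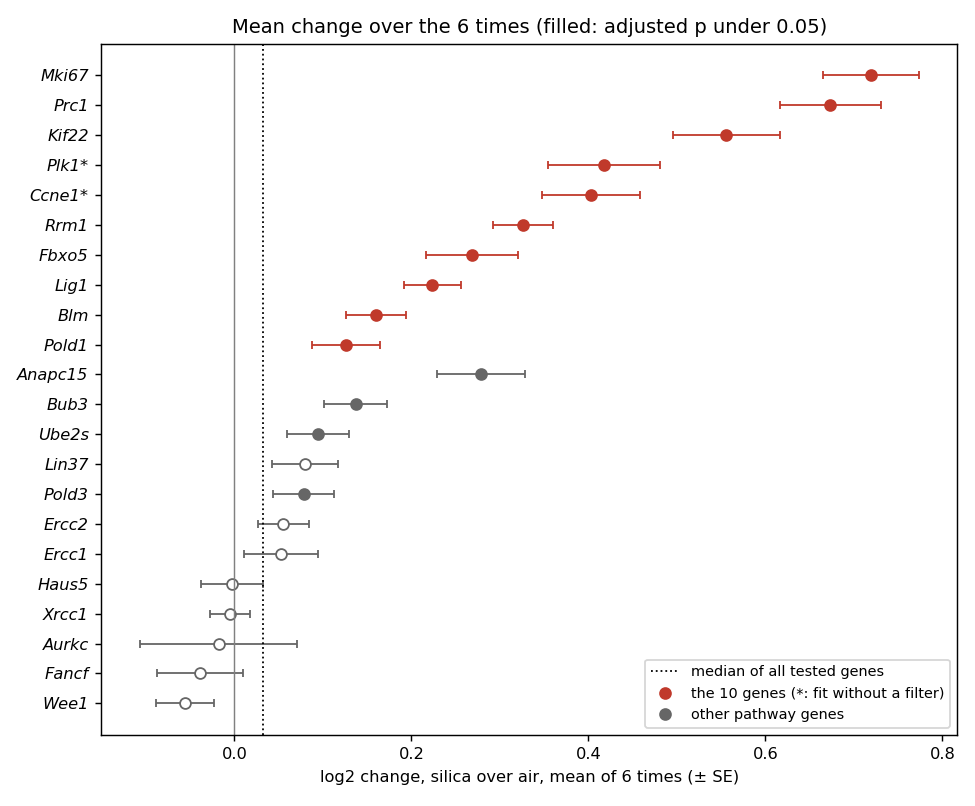
Log2 change, silica over air, as the mean of the 6 times ± SE, for the 10 genes (red) and 12 other tested pathway genes (grey); filled points passed at an adjusted p under 0.05 and the dotted line is the median of all tested genes. Mki67, Prc1 and Kif22 lie between 0.56 and 0.72, and the highest of the other pathway genes is Anapc15 at 0.28.

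Markers of several cell types moved with these genes. Each list holds few genes, and in the mean over times 37.5% of all tested genes rose and 20.1% fell. Of 16 listed monocyte and macrophage markers 5 were tested, Itgax, Itgam, Tyrobp, Cd33 and C5ar1, and all 5 rose in the mean over times. Their summed level was 70.3 to 187 FPKM in silica libraries and 71.0 to 111 FPKM in air libraries. Tyrobp alone averaged 92.1 FPKM over all libraries. Itgam and Tyrobp belong to myeloid cells and not to macrophages alone. Of 11 listed neutrophil markers 2 were tested, Cd177 and Ceacam10, and both rose, with sums of 14.0 to 56.2 FPKM in silica and 5.24 to 18.8 FPKM in air. Of 11 listed alveolar type 2 markers 3 were tested, Napsa, Lpcat1 and Cebpa, and all 3 rose. Their sums were 138 to 318 FPKM in silica and 130 to 166 FPKM in air. The lowest silica sum of each of these 3 lists was at 12 months, in the group that holds replicate 3.

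By time, the type 2 sum had its group median at 184, 222, 262, 252, 267 and 217.5 FPKM in silica lungs from 1 to 18 months, against 136, 138, 151, 145, 148 and 147 FPKM in air lungs. Of 3 tested B cell markers 0 changed, with sums of 4.29 to 10.4 FPKM in silica and 4.50 to 9.28 in air. Of 2 airway markers 1 rose, with sums of 51.7 to 85.2 FPKM in silica and 36.6 to 59.01 in air. Of 2 T and NK cell markers 1 fell, with sums of 9.99 to 24.5 FPKM in silica and 11.0 to 29.5 in air. Both endothelial markers fell, with sums of 54.9 to 86.9 FPKM in silica and 75.9 to 91.1 in air, and 2 of 3 erythroid markers fell, with sums of 806 to 2119 and 1138 to 3037. Markers of type 1 cells and fibroblasts were not analysed here, and no marker in the table was at 0 throughout. The part of these cell types in the rise of the division genes was not tested.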

How the data were processed

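RNA was sequenced from 1 piece of lung per rat, 59 libraries in 12 groups, from ribosome-depleted stranded total RNA, per the labels' protocols. The deposited values were FPKM, which the authors computed per gene and library, per the title of the deposited table. The submitters' processing notes name Cufflinks 2.1.1, TopHat2 2.0.9, Bowtie2 2.2.9, Trimmomatic 0.35 and bcl2fastq 2.19 without saying what each did, and the genome build was not given in the sources used here. Of 2888 entries the last was incomplete (31 of 59 values) and was left out, so the table can be part of a longer one; 0 value columns were unmatched. A count model was not used, because FPKM are not counts. Of the values of 261 low entries, 36.3% lay within log2 0.1 of 1 step, so whole reads were not recovered, and relative depth only was read from them.

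The 1278 entries (44.3%) with 4 or more libraries at an FPKM of 1 or above were tested on log2(FPKM + 0.5) in R 4.3.3 with limma 3.58.1, which understates the change of low genes, with an intensity trend, all 12 groups in 1 fit (47 residual degrees of freedom, prior 3.41) and Benjamini-Hochberg adjustment over all tested genes, threshold 0.05. Each time had its own air group. Exact permutation tests used Python 3.11.15 with scipy 1.17.1, and matplotlib 3.10.9 drew the plots. The fit was run on simulated data with independent normal noise and, for some genes, the same rise in all silica groups. Those data held no outlying library and no correlated genes, so they do not test the fit on such features. The 10 genes, the pathway and marker lists and the tests were chosen with earlier results of these data known. Named genes are the 10 whatever their values, the tested pathway genes, the 6 genes most like Mki67 by each of 2 correlations, and markers by list. Promoter windows came from RefSeq (GRCr8) by symbol, 9 of 10 matched. No 2 libraries were identical (0 pairs), and the labels describe rats, and the p-values reflect how much rats of a group differ.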

Additional observations from a re-analysis of the deposited data

Results flagged for a closer look

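In groups of 4 or 5 rats, the highest or lowest lung of a gene was compared with its distance from the nearest other lung, relative to the range of the group. Of 120 groups, 13 held a lung past the limit of Dixon's test, where chance alone gives about 1 group in 20.

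In silica lungs, Prc1 was high in 1-month replicate 4 (4.86 FPKM) and in 9-month replicate 5 (4.86 FPKM). Fbxo5 was high in 1-month replicate 4 (1.24 FPKM), so that library was the highest of its group in both genes. Kif22 was low in 1-month replicate 1 (0.871 FPKM) and in 6-month replicate 3 (0.989 FPKM). Rrm1 was low in 12-month replicate 3 (4.60 FPKM), the silica library that stood apart from its group. Lig1 was high in 3-month replicate 3 (2.74 FPKM) and in 6-month replicate 5 (3.10 FPKM).

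In air lungs, Mki67 was high in 1-month replicate 4 (2.12 FPKM), Ccne1 in 1-month replicate 1 (0.459 FPKM), Kif22 in 9-month replicate 2 (0.702 FPKM) and Plk1 in 12-month replicate 4 (0.520 FPKM). Fbxo5 was low in 3-month replicate 3 (0.580 FPKM).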

How the results depend on the processing

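Counts of the 8 genes called stayed within 1.5 times in 86 combinations of a comparison and another setting and moved further in 14; with 1 library left out they stayed in 221 and moved in 15. Median centring gave 0 called higher at 1 month, 2 at 18 months, 1 with age in air and 3 for variation in air; quantile normalization gave 0 at 1 month, 1 with age in air and 3 for variation in air. Array weights gave 4 at 1 month, 5 at 3 months, 1 for variation of the silica difference (Mki67, limma adjusted p = 0.00852) and 3 for variation in air. Requiring an FPKM of 1 in 30 or more libraries left 5 of the genes, of which 4 were called at 9 months and 5 in the mean. Each time alone gave 0 at 12 months. Leaving out 1 library in turn gave 0 to 3 at 1 month, 2 to 4 at 18 months, 1 to 2 with age in air, 0 to 1 for variation of the silica difference and 0 to 1 for variation in air. Of the other pathway genes, 1 was called in the mean after median centring, 1 after quantile normalization and 2 without the 6-month groups.

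Changes near 0 turned sign. After median centring these were Fbxo5 at 1 month (-0.0005999) and 3 months (-0.015), Lig1 at 3 months (-0.020), Blm at 18 months (-0.050), Rrm1 at 18 against 1 month (0.018) and Rrm1 with age in air (-0.031). After quantile normalization they were Blm at 18 months (-0.0056), Rrm1 at 18 against 1 month (0.032) and with age in air (-0.027), and Ube2s in the mean (-0.019); with array weights it was Pold1 at 12 months (-0.053). Without 1 library, Fbxo5 at 3 months ranged from -0.00059 to 0.12, Pold1 at 12 months from -0.015 to 0.090, Blm at 18 months from -0.012 to 0.039, Rrm1 at 18 against 1 month from -0.073 to 0.022 and Blm with age in air from -0.031 to 0.045. The cause was not tested. Centring moved the median of all genes by less than log2 0.1 (at 1 month to -0.024 from 0.066).

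No paired analysis was possible because the titles number every library differently, so no replicate number is shared between groups. FPKM carry no counts, so counting error is unknown, and Plk1, Ccne1, Fbxo5, Blm and Kif22 were below 1 FPKM in most libraries. The settings for Plk1, Ccne1 and the other pathway genes were added after the data were seen.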
